A study of Homo sapiens with 3 samples.

Results

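The genes described here run DNA replication and the S phase of the cell cycle. The set holds 32 genes of the 13936 in the deposited table. They were chosen by name for their role in origin licensing, the replication fork, nucleotide supply and E2F-driven transcription. Earlier results of these data were known when they were chosen. All 32 had a row in the table and all 32 passed the filter on low values, a mean of at least 10 scaled counts over the libraries. They were measured by polyA RNA sequencing in AB12, a mouse malignant mesothelioma cell line grown in RPMI with 10% serum. One group is 1 library labelled shSC, which the column name also marks as WT. The other group is 2 libraries labelled shNF2 and KD, numbered 20 and 21 in their titles and called library 20 and library 21. The question of the series was how the transcriptome of the shNF2 cells differs from that of the shSC cells. What the numbers 20 and 21 mean, and whether they are separate hairpins, clones or cultures, is not said in the labels. The p-values rest on the spread between the 2 shNF2 libraries, moderated with that of all genes, and part of it may be technical. That spread was taken to hold for the single shSC library too. The samples carry a human organism label, while the gene identifiers and the named build mm10 are mouse.

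Before S phase, the origin recognition complex, Cdc6 and Cdt1 load the MCM2-7 ring onto DNA, a step called licensing. The ring becomes an active helicase when Cdc45 and the GINS complex join it, and DNA polymerases, a sliding clamp (PCNA), its loader (RFC), flap endonuclease and DNA ligase then copy both strands behind it. E2F transcription factors, released from the retinoblastoma protein by cyclin-dependent kinases, switch on many of these genes together, so the set is widely read as a measure of proliferation. Merlin, the product of Nf2, restrains growth upstream of the Hippo pathway, and its loss is common in mesothelioma.

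The libraries held 25837151 to 29532600 reads in genes. Nf2 itself had 1539 scaled counts in shSC, against 486 in library 20 and 458 in library 21. It fell, with a log2 fold change of -1.70 ± 0.24 (SE, 2 libraries against 1; adjusted p = 0.00555 with limma). Of 7 mesothelial markers 5 had a row in the table. Their summed level was 43900 scaled counts in shSC, against 39947 in library 20 and 33759 in library 21. Mesothelin (Msln), with 7397, 9722 and 8977, and Krt7, with 49.7, 289.8 and 182.7, were above shSC in both shNF2 libraries. The keratin genes Krt8, with 7683, 6476 and 5419.9, Krt18, with 23657, 20443 and 16561, and Krt19, with 5113, 3016 and 2618, were below it in both. Wt1 and Upk3b, of the same list, had no row. Rows were found for 0 of 6 leukocyte markers, 0 of 3 endothelial markers, 1 of 2 epithelial markers and 2 of 5 fibroblast markers. The fibroblast markers summed to 13.6 to 21.4 scaled counts. The part of the marker differences in the results below was not tested.

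No replication gene passed the test in shNF2, and the genes lay on both sides of shSC. The median log2 fold change of the 32 genes was 0.11, beside 0.00 over the 12813 genes tested, and single genes ran from -0.41 (Ccne2) to 0.60 (Pola1). The 6 MCM2-7 genes, DNA ligase I, polymerase alpha and both ribonucleotide reductase subunits stood above shSC in both shNF2 libraries. Of these, Mcm5 and Rrm2 were close to shSC in library 20. The clamp gene Pcna, the loader subunit Rfc3, the primase gene Prim1, thymidylate synthase, cyclin E2 and E2f1 stood below shSC in both. In all, 17 of the 32 were above shSC in both libraries, where 36.1% of all tested genes were, and 10 were below it in both, where 35.8% were. The other 5 (Cdc6, Cdc45, Pole, Rfc5 and Ccne1) lay on opposite sides of shSC in library 20 and library 21. Both libraries are set against the same shSC library, so a shared side is not a replication.

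Differences between genes were tested with limma on log2(scaled count + 1), and adjusted p-values are Benjamini-Hochberg over all genes tested. At an adjusted p under 0.05, limma called 0 of the 32 genes (0.843% of all tested genes), edgeR 0 (0.632%) and DESeq2 0 (0.765%). At an unadjusted p under 0.05, limma gave 4 of the 32, which is 12.5% beside 9.27% of all tested genes: Mcm4, Pola1, Lig1 and Rrm1. The smallest adjusted p was 0.414, for Lig1. The 95% limma interval of the fold change lay within a 2-fold change either way for 29 of the 32 genes. The same held for 8441 of the 12813 genes tested. The median SE was 0.216 over the 32 genes and 0.259 over all tested genes. The exceptions among the 32 were Pola1, Lig1 and Rrm1, whose upper bounds were 1.14, 1.03 and 1.08 on the log2 scale. Changes smaller than those intervals were not detectable with these libraries. The intervals are not adjusted for the number of genes tested. Those of Mcm4, Pola1, Lig1 and Rrm1 excluded 0, yet none of these genes passed, so the limit for a call lay further out. In a bulk library, fewer cells in S phase and less RNA per cell cannot be told apart.

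**Figure D1:**
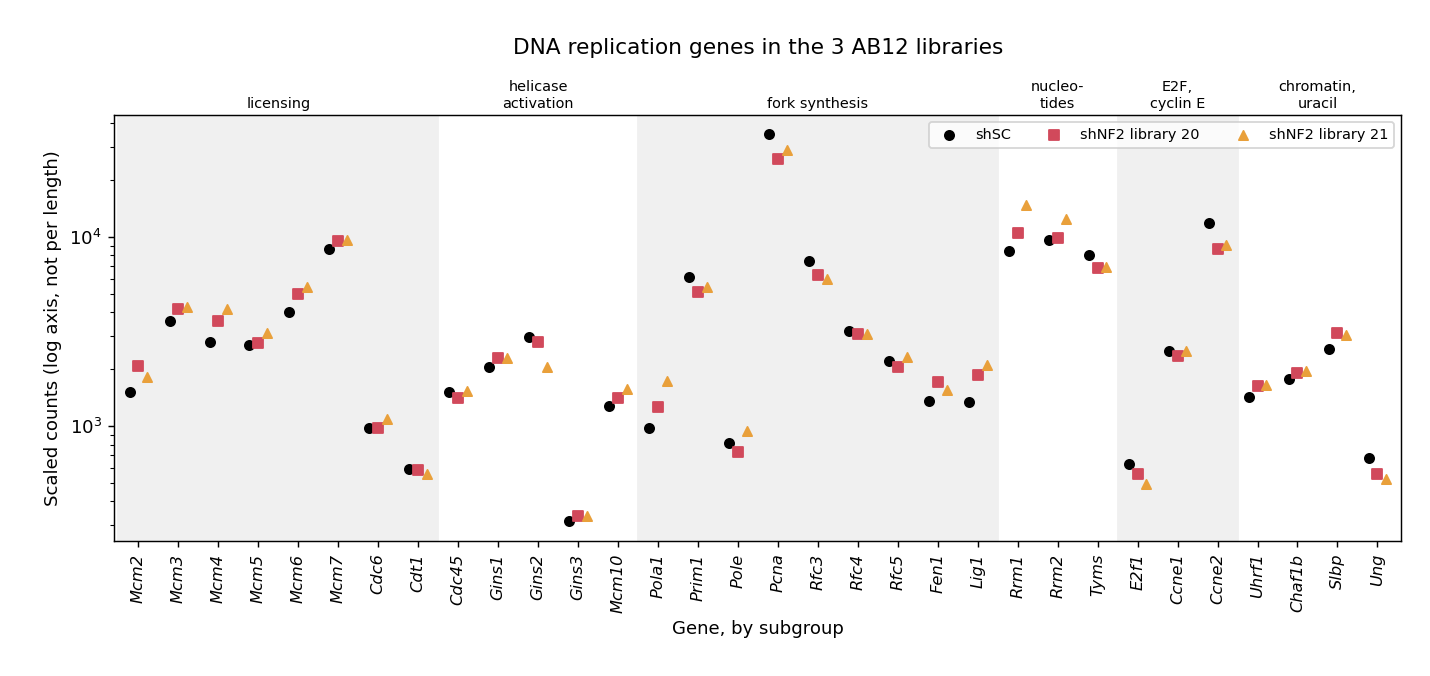
Scaled counts (log axis) of the 32 replication genes, ordered by subgroup, in shSC (circles), shNF2 library 20 (squares) and shNF2 library 21 (triangles); each mark is 1 library and values are not per length, so heights of different genes are not comparable. Marks of 1 gene lie close together for most genes; Pcna and Ccne2 are highest in shSC, and Rrm1 and Pola1 are highest in library 21.

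The 6 genes of the MCM2-7 ring, the core of the replicative helicase, had values above shSC in both shNF2 libraries. Of all tested genes, 36.1% did. Mcm4 (ENSMUSG00000022673.4) had 2773 scaled counts in shSC, against 3609 in library 20 and 4169 in library 21. Its log2 fold change was 0.48 ± 0.21 (SE; adjusted p with limma = 0.5; 95% interval 0.03 to 0.94). Mcm6 (ENSMUSG00000026355.11) had 4014, 4985 and 5421 scaled counts, with a log2 fold change of 0.37. Thus both shNF2 values lay above shSC for these subunits, and library 21 was the higher. Mcm2 (ENSMUSG00000002870.8) had 1519.9, 2083 and 1813 scaled counts (0.35), with library 20 the higher. Mcm3 had 3599, 4156 and 4285 (0.23). The smallest differences were those of Mcm5, with 2690.3, 2766 and 3124 scaled counts (0.13), and of Mcm7, with 8707, 9579 and 9673 (0.14). Mcm5 was close to shSC in library 20. The median over the 6 genes was 0.29, with 0.26 in library 20 and 0.25 in library 21. Summed over the ring, scaled counts were 23303 in shSC, against 27177 in library 20 and 28485 in library 21, which is 1.17 and 1.22 times shSC. None of the 6 passed the test.

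The loading factors lay close to shSC. Cdc6, the ATPase that recruits Cdt1 with the ring, had 977 scaled counts in shSC, against 976 in library 20 and 1094 in library 21. Cdt1 had 593, 586 and 559.9. Cdt1 was thus slightly lower in both shNF2 libraries, and Cdc6 was level with shSC in library 20. Their log2 fold changes were 0.08 ± 0.23 and -0.05 ± 0.24 (SE). The 95% interval of Cdc6 ran from -0.41 to 0.58 and that of Cdt1 from -0.58 to 0.48, so changes of 2-fold either way lie outside both.

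Genes that turn the loaded ring into a helicase split among themselves. Mcm10, which is needed to activate the assembled helicase, had 1276 scaled counts in shSC, against 1417 in library 20 and 1566 in library 21 (log2 fold change 0.22 ± 0.22, SE). Cdc45, the partner of the ring in the moving helicase, had 1510.2, 1406 and 1531 (-0.04). Its libraries lay on either side of shSC. The GINS complex, the third component of that helicase, had 3 of its subunit genes in the set. Gins1 had 2049, 2288 and 2283 scaled counts (0.16) and Gins3 had 313.5, 333.7 and 334.4 (0.09). Gins2 (ENSMUSG00000031821.11) was instead lowest in library 21, with 2959.96 in shSC, against 2774 in library 20 and 2064 in library 21 (-0.31 ± 0.23, SE; adjusted p with limma = 0.741). The ratio of Gins2 to Gins1 scaled counts went from 1.44 in shSC to 1.21 in library 20 and 0.904 in library 21. Gins4, the remaining subunit, was taken from the list of other licensing genes after values had been seen, and had a log2 fold change of -0.04.

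At the fork, genes of primer synthesis stood apart within one enzyme. Pola1 (ENSMUSG00000006678.6), the catalytic subunit of DNA polymerase alpha, had 974 scaled counts in shSC, against 1258 in library 20 and 1741 in library 21. Its log2 fold change of 0.60 ± 0.25 (SE; adjusted p with limma = 0.444) was the highest of the 32 genes, with 0.37 in library 20 and 0.84 in library 21. Prim1 (ENSMUSG00000025395.14), the small primase subunit of the same complex, had 6148, 5110.04 and 5443 scaled counts (-0.22 ± 0.21, SE). The ratio of Pola1 to Prim1 scaled counts was 0.158 in shSC, against 0.246 in library 20 and 0.320 in library 21, which is 1.55 and 2.02 times the shSC ratio. The remaining genes of that complex, Pola2 and Prim2, which were singled out after values had been seen, had log2 fold changes of 0.29 and 0.33, so Prim1 was the only gene of the 4 below shSC. Pole, the catalytic subunit of the leading-strand polymerase, had 816 scaled counts in shSC, against 731 in library 20 and 941 in library 21 (0.02) and so crossed shSC between libraries.

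The sliding clamp gene was lower in both shNF2 libraries, genes of its loader lay on both sides of shSC, and the lagging-strand genes Lig1 and Fen1 were higher. Pcna (ENSMUSG00000027342.14), the clamp that tethers polymerases to DNA, had 35008 scaled counts in shSC, against 25907 in library 20 and 29082 in library 21, with a log2 fold change of -0.35 ± 0.23 (SE; adjusted p with limma = 0.699). Rfc3, a small subunit of the clamp loader, had 7455, 6287 and 6015 (-0.28). Rfc4 had 3191, 3067 and 3069.6 (-0.06) and Rfc5 had 2200.5, 2067 and 2318 (-0.01). The remaining loader subunits, singled out from the list of other fork genes after values had been seen, were above shSC in both libraries. Rfc1, the large subunit, had 1480.0, 1780.4 and 2098 scaled counts (0.38), and Rfc2 had 3088, 3793 and 3361 (0.21). Lig1 (ENSMUSG00000056394.17), which seals Okazaki fragments, had 1344 scaled counts in shSC, against 1856 in library 20 and 2107 in library 21, with a log2 fold change of 0.56 ± 0.22 (SE; adjusted p with limma = 0.414; 95% interval 0.09 to 1.03). Fen1, which removes the flaps ahead of ligation, had 1358, 1711 and 1554 (0.26). Both shNF2 libraries were therefore below shSC for Pcna and Rfc3, only slightly below it for Rfc4, and above it for Lig1 and Fen1. The ratio of Mcm4 to Pcna scaled counts was 0.0792 in shSC, against 0.139 in library 20 and 0.143 in library 21, 1.76 and 1.81 times shSC; this pair was chosen after values had been seen. Over the 32 genes, summed scaled counts were 139094 in shSC, against 131058 in library 20 and 143615 in library 21. Pcna supplied much of that sum: without it the sums were 104086, 105151 and 114532.

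**Figure D2:**
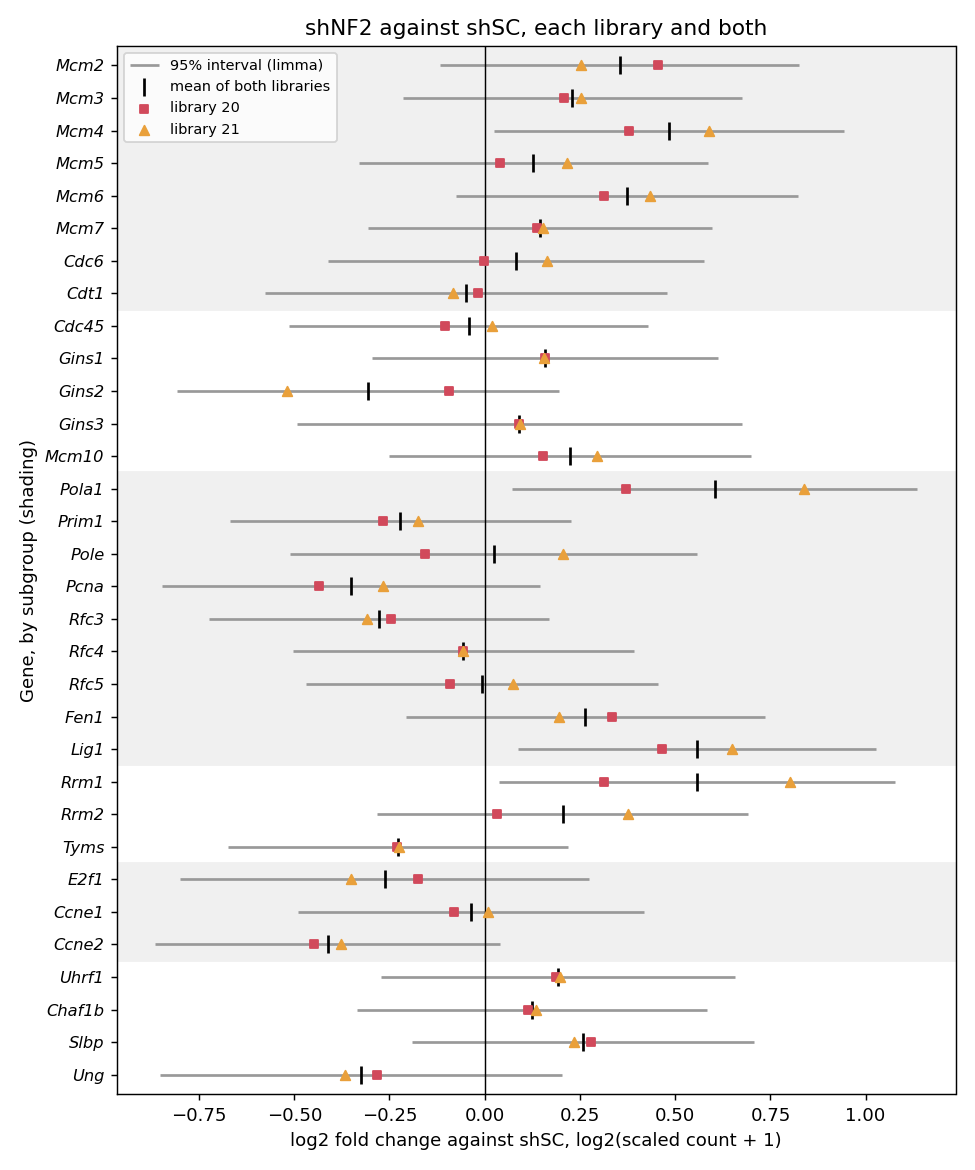
log2 fold change against shSC of each replication gene in library 20 (squares) and library 21 (triangles), with the mean of both (black tick) and its 95% limma interval (grey bar); shading marks subgroups. The intervals of Mcm4, Pola1, Lig1 and Rrm1 lie above 0, none lies wholly below 0, and no gene passed after adjustment.

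Nucleotide supply showed a gene pair at unequal distances from shSC. Ribonucleotide reductase makes deoxyribonucleotides from a large subunit, encoded by Rrm1, and a small subunit, encoded by Rrm2. Rrm1 (ENSMUSG00000030978.9) had 8453 scaled counts in shSC, against 10508 in library 20 and 14723 in library 21. Its log2 fold change was 0.56 ± 0.24 (SE; adjusted p with limma = 0.487), with 0.31 in library 20 and 0.80 in library 21. Rrm2 had 9632, 9852 and 12500 scaled counts (0.20), close to shSC in library 20. The ratio of Rrm1 to Rrm2 scaled counts was 0.878 in shSC, against 1.07 in library 20 and 1.18 in library 21. Tyms, thymidylate synthase, which makes dTMP, had 8087, 6897 and 6923 scaled counts (-0.23 ± 0.21, SE) and was lower by a like amount in both shNF2 libraries. The median of these 3 genes was 0.03 in library 20 and 0.38 in library 21.

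The E2F and cyclin E genes were level or below shSC. E2f1, an activator of S-phase genes, had 631 scaled counts in shSC, against 559 in library 20 and 495 in library 21 (log2 fold change -0.26 ± 0.25, SE; adjusted p with limma = 0.795). Ccne2 (ENSMUSG00000028212.16), which encodes cyclin E2, a partner of the kinase CDK2 at S-phase entry, had 11864, 8700.1 and 9135 scaled counts. At -0.41 ± 0.21 (SE; adjusted p with limma = 0.6; 95% interval -0.87 to 0.04) it had the lowest log2 fold change of the 32 genes. Ccne1, which encodes cyclin E1, had 2495, 2361 and 2508 scaled counts (-0.04). Cyclin E1 thus stayed within a few percent of shSC in library 21, while cyclin E2 was lower in both libraries. The ratio of Ccne2 to Ccne1 scaled counts was 4.76 in shSC, against 3.68 in library 20 and 3.64 in library 21.

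Among genes that act on chromatin and DNA bases behind the fork, 3 of 4 were above shSC in both libraries. The share over all tested genes was 36.1%. Slbp, which binds the stem-loop of replication-dependent histone mRNAs, had 2569 scaled counts in shSC, against 3116 in library 20 and 3023 in library 21 (log2 fold change 0.26 ± 0.21, SE). Uhrf1, which brings the maintenance methyltransferase to newly copied DNA, had 1435, 1635.0 and 1645 (0.19). Chaf1b, a subunit of the histone chaperone CAF-1, had 1776, 1922 and 1951 (0.12). These 3 genes differed little between the shNF2 libraries. Ung (ENSMUSG00000029591.14), the glycosylase that removes uracil from DNA, was lower, with 678, 557 and 525 scaled counts (-0.33 ± 0.24, SE; adjusted p with limma = 0.74). Most mRNAs of replication-dependent histone genes lack a polyA tail, and these libraries were polyA-selected. The table held 11 such symbols; tested were 8, of which 0 passed with limma (0 at an unadjusted p under 0.05), and their levels ran from 9.72 to 127 scaled counts. Hist3h2a, Hist1h1c and Hist1h2be had log2 fold changes of 0.63, 0.56 and -0.50, with standard errors of 0.52, 0.39 and 0.61.

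Reads behind these values were numerous. Gins3, the gene with the fewest, had 319 to 344 reads a library, and Pcna, with the most, had 24766 to 35955. Exact 95% counting intervals of the ratio to shSC, which cover counting error only and compare libraries rather than conditions, lay above 1 in both shNF2 libraries for 14 of the 32 genes (18.2% of all tested genes, and 24.2% of the 7864 with a mean at least that of the lowest member). They lay below 1 in both for 8 genes (17.6%, and 22.1% at that depth): Gins2, Prim1, Pcna, Rfc3, Tyms, E2f1, Ccne2 and Ung. Not among the 14 were Mcm5 and Rrm2, with library 20 ratios of 1.03 (0.974 to 1.08) and 1.02 (0.994 to 1.05). Rfc4 was not among the 8, at 0.961 (0.914 to 1.01) in library 20 and 0.962 (0.916 to 1.01) in library 21. For Pcna the ratio to shSC was 0.740 (0.728 to 0.752) in library 20 and 0.831 (0.818 to 0.844) in library 21. The shNF2 libraries also differed from each other beyond counting error, for 20 of the 32 genes (54.3% of all tested genes, and 69.2% at that depth). Rrm1 was 1.40 times as high in library 21 as in library 20 (1.37 to 1.44), Pola1 1.38 times (1.29 to 1.49), Pole 1.29 times (1.17 to 1.42) and Rrm2 1.27 times (1.24 to 1.30). Gins2 was 0.744 times as high (0.702 to 0.788). For Gins1, Gins3, Rfc4, Tyms and Uhrf1 the ratio lay between 0.998 and 1.01.

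**Figure D3:**
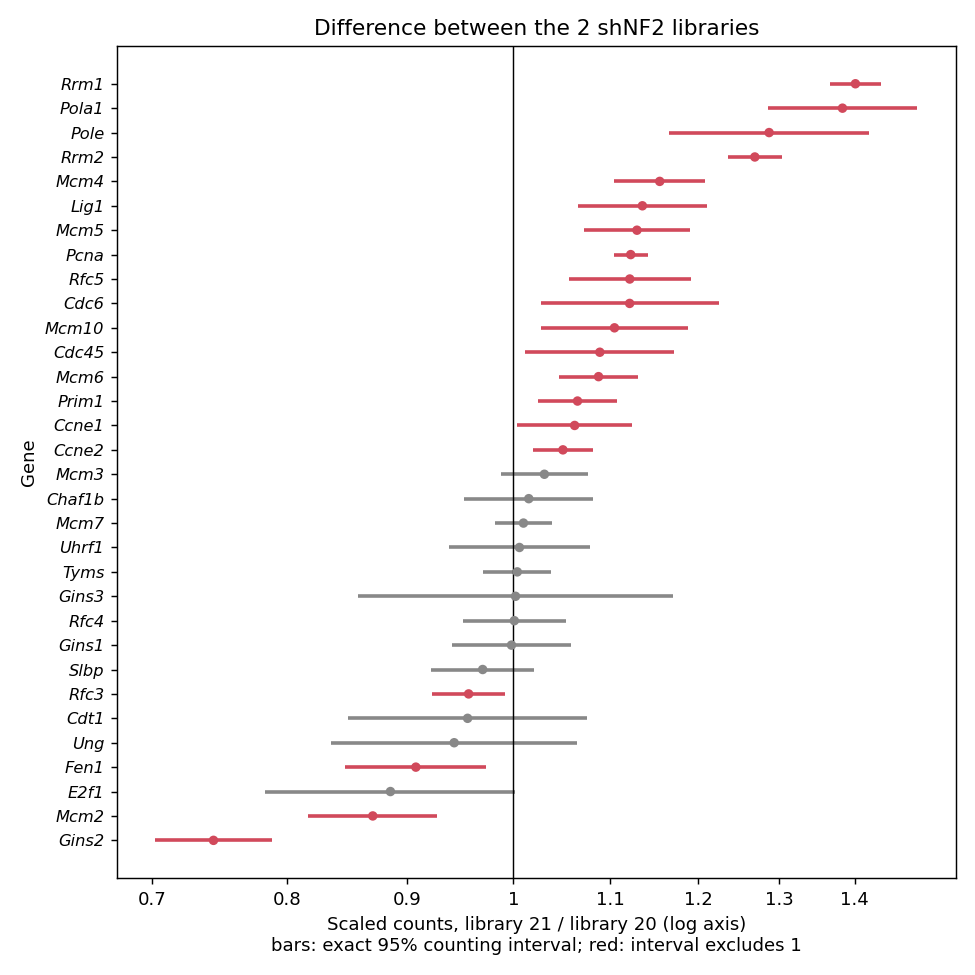
Ratio of scaled counts in library 21 to library 20 (log axis) for the 32 replication genes, sorted, with exact 95% counting intervals as bars; red marks the 20 genes whose interval excludes 1. Over all tested genes the interval excluded 1 for 54.3%, and for 69.2% of those with a mean at least that of the lowest member. The ratios of the 32 genes run from 0.744 for Gins2 to 1.40 for Rrm1. For the genes in red, the shNF2 libraries differ from each other by more than counting error.

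Library 21 differed from shSC with the GC content of transcripts, which was read from human transcripts of the same symbol as stand-ins. Across the 10353 tested genes with a stand-in, not independent of each other, Spearman's rho of GC with the log2 fold change reached -0.373 in library 21, where it was -0.038 in library 20. Across the 32 replication genes it was -0.018 in library 21 and 0.147 in library 20, and their median GC of 49.8% equalled that of the tested genes to that precision. After a correction for GC and length that was added with the data seen, the median log2 fold change of the 32 genes was 0.04 in place of 0.11, the MCM2-7 median was 0.24, and Lig1, Pola1, Rrm1 and Mcm4 had 0.61, 0.48, 0.44 and 0.39. Pcna had -0.39 and Ccne2 -0.52 after it. The median over the 32 genes was also lower in library 20 alone (0.04) than in library 21 alone (0.15).

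Other genes of replication also lay on both sides of shSC, and 0 of 92 tested passed with limma, edgeR or DESeq2. Of these, 8 had an unadjusted p under 0.05, where 9.27% of all tested genes did. Above shSC in both libraries were 54, or 58.7% beside 36.1% of all tested genes, and below it in both were 24, or 26.1% beside 35.8%. The median log2 fold change was 0.16. Among 16 other licensing and firing genes 5 were above and 7 below in both libraries, and the median was 0.08 (library 20, -0.06; library 21, 0.15). Recql4, a helicase of replication initiation, had -0.46, the origin recognition subunit gene Orc4 had -0.45 and Donson, a factor of helicase assembly, had 0.26. Genes for origin recognition and firing thus lay on both sides of shSC.

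Among 24 other fork genes 12 were above and 7 below shSC in both libraries (median 0.10, with 0.12 in library 20 and -0.01 in library 21). Over all tested genes the shares were 36.1% above and 35.8% below. Pold4, the smallest subunit of the lagging-strand polymerase delta, had 2948 scaled counts in shSC, against 1707 in library 20 and 1221 in library 21. Its log2 fold change was -1.03 ± 0.24 (SE; adjusted p = 0.0823 with limma). Among the alternatives, it passed with limma without the filter on low values (adjusted p = 0.0138) and did not pass in the other 8, with adjusted p from 0.0671 (DESeq2) to 0.647 (quantile normalization). Its shNF2 values lay well below shSC, as did those of Rpa3, the smallest subunit of the single-strand binding protein RPA, with 8209, 5591 and 4844 scaled counts (-0.66 ± 0.21, SE; adjusted p with limma = 0.265). Rpa1, the largest RPA subunit, lay on the other side, with 3255, 4676 and 4676 (0.52 ± 0.21, SE; adjusted p with limma = 0.424). Rpa2, added after values had been seen, had 0.06.

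Fork protection and checkpoint genes, nucleotide supply genes and chromatin genes were mostly above shSC. Of all tested genes 36.1% were above shSC in both libraries. Of 12 tested fork protection and checkpoint genes 10 were above it in both libraries (median 0.27), with Hus1, a subunit of the checkpoint clamp, at 0.47, the kinase gene Wee1 at 0.42 and the clamp loader gene Rad17 at 0.41. Atrip was below the filter. Among 14 other nucleotide supply genes 10 were above (median 0.22). Ctps, CTP synthase, had 3708 scaled counts in shSC, against 6137 in library 20 and 6043 in library 21 (0.72 ± 0.21, SE; adjusted p with limma = 0.176), Samhd1, which degrades deoxyribonucleotides, had 0.65, and Dctd had 0.38. Of 12 other chromatin genes 10 were above (median 0.22), with the chromatin remodeller gene Hells at 0.46 and the exonuclease gene Exo1 at 0.32.

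In the wider E2F family the members differed in side. Of 14 E2F, pocket protein, cyclin A and CDK2 genes 7 were above shSC and 4 below it in both libraries (median 0.06, with 0.01 in library 20 and 0.17 in library 21). Beside them, 36.1% of all tested genes were above and 35.8% below in both. E2f7, a repressor that limits S-phase transcription, had 220.1 scaled counts in shSC, against 368 in library 20 and 388 in library 21 (0.78 ± 0.27, SE; adjusted p with limma = 0.328). Ccna2, which encodes the cyclin of S phase and G2, had 3298, 4158 and 5680.4 (0.56 ± 0.23, SE; adjusted p with limma = 0.456). E2f2, an activator like E2f1, had 173, 128 and 144 (-0.35 ± 0.32, SE).

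Genes of G2 and mitosis had a higher median than the replication genes, a difference that was not tested. Of 36 such genes, 29 were above shSC in both libraries, or 80.6% beside 36.1% of all tested genes, and 1 was below. With limma, edgeR and DESeq2 0 passed, with 12 in limma at an unadjusted p under 0.05, where 9.27% of all tested genes were, and a median log2 fold change of 0.39 (0.40 in library 20 and 0.45 in library 21). The mitotic kinesin genes Kif20b and Kif11 had 0.86 and 0.82, and Anln, which encodes anillin of the cleavage furrow, had 0.82.

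**Figure D4:**
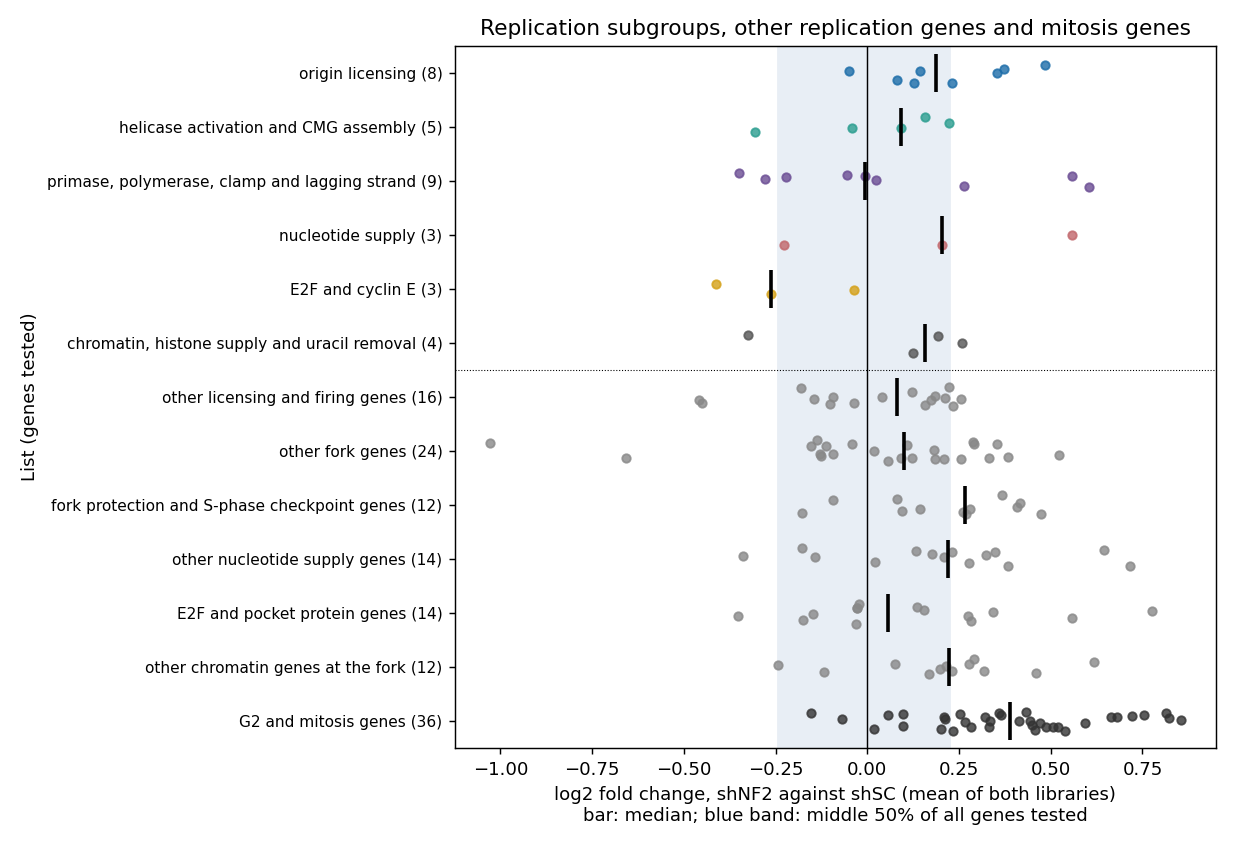
log2 fold change (mean of both shNF2 libraries against shSC) of every tested gene in the 6 replication subgroups (coloured), 6 lists of other replication genes (grey) and the G2 and mitosis list (dark), with each list's median as a bar and the range from the lower to the upper quartile of all tested genes as the blue band; points are spread vertically only to separate them. The G2 and mitosis list has the highest median (0.39), the E2F and cyclin E genes have the lowest (-0.26), and the fork genes reach both sides of 0.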

How the data were processed

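The deposited table holds gene-level signal, described in its name as scaled. Tools and build in the submitters' processing notes, which give neither role nor order, are cutadapt 1.6, STAR 2.5.0a, HTSeq 0.5.3, DESeq 1.22.1 and mm10. In the deposited signal each value equals whole reads over a library factor (100% whole within 0.001 reads in each library), so reads were recovered. The table has 13936 genes; 4 rows name no gene, hold 47.7% to 48.7% of reads and were left out. One of these rows holds alignments that are not unique, so reads shared with near-identical gene copies stand apart from the gene values. Not given in the sources used here are the filter on low genes and whether counting used strand.

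Samples were grouped by treatment label and title. Genes whose mean scaled count reached 10 (12813) were tested with limma 3.58.1 (R 4.3.3, variance trend) on log2(scaled count + 1), with adjustment after Benjamini and Hochberg at 0.05. Spread was estimated from the difference between both shNF2 libraries (1 residual degree of freedom, plus 11.9 prior ones from all genes) and was taken to hold for the unreplicated shSC library too. With 3 libraries no exact permutation p can fall under 1/3. edgeR 4.0.16 (quasi-likelihood), DESeq2 1.42.0, other scalings, filters and pseudocounts, and each shNF2 library left out were alternatives; a GC and length correction (mgcv 1.9.3, GENCODE 29 human stand-ins) was added later. Counting intervals are exact conditional binomial intervals. Scripts were tested on simulated counts first.

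The genes and lists were chosen with earlier results of these data known. Named were Nf2, all 32 genes, and in each other list any gene that passed and the 3 with the largest absolute log2 fold change; others are said to have been added after values were seen. One gene that this rule names is not reported here. Fold changes on this scale understate those of low genes. No mouse annotation was used here, so no coordinates or sequences are given.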

Additional observations from a re-analysis of the deposited data

How the results depend on the processing

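The call of 0 passing genes among the 32 held under each of the 9 alternatives that carry a test, and the smallest adjusted p was 0.246 (Lig1, GC and length correction). Each of the 32 log2 fold changes kept its sign under these, except for Cdt1, at 0.13 after the GC and length correction, and Pole, at -0.013 under quantile normalization. The number of the 32 genes above shSC in both libraries was 17 in the main fit and 15 after the GC and length correction. After that correction Gins1 (-0.066) and Chaf1b (-0.017) were below shSC in library 21, and Rrm2 (-0.003) was below it in library 20. Cdt1 was then above shSC in library 20 (0.03) and library 21 (0.24). The number below shSC in both was 10 in the main fit and 12 under quantile normalization. All 6 MCM2-7 genes stayed above shSC in both libraries in each alternative. The limma variants that changed only the filter or the variance model used the log2 values of the main fit. No sign or side could change in them. Sides under edgeR were read from the values of another alternative scaling. The median over the 32 genes was 0.15 without library 20 and 0.04 without library 21; with 1 library a side these values have no test. After the GC and length correction the median of nucleotide supply genes was 0.08 in place of 0.20, that of helicase activation genes 0.02 in place of 0.09, that of E2F and cyclin E genes -0.16 in place of -0.26, that of fork protection genes 0.15 in place of 0.27 and that of other licensing and firing genes -0.019 in place of 0.08, a change of sign; the cause was not tested. The median of G2 and mitosis genes was 0.33 after that correction in place of 0.39. Over all genes the test called 108 (53 higher, 55 lower). Without the filter it called 232 (110 higher, 122 lower; more genes were tested). Under quantile normalization it called 0 (0 higher, 0 lower), with 882 genes at an unadjusted p under 0.05. limma with no variance trend called 0 (0 higher, 0 lower), with 1036 such genes. edgeR called 29 higher and the GC and length correction 32 higher, the latter on fewer genes. No paired analysis was possible because the groups share no replicate numbers. Precision is limited by the number of libraries, since shSC has no replicate.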
